A study of Saccharomyces cerevisiae with 5 samples.

Results

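The 10 genes described here encode the subunits and a close partner of the TOR complexes of budding yeast, Saccharomyces cerevisiae. They were chosen by name: a spot belonged to the set when its platform or RefSeq symbol or synonym was one of AVO1, AVO2, TSC11 (also called AVO3), BIT61, SLM1, LST8, TOR1, TOR2, KOG1 and TCO89. All 10 were found, of 5579 genes in the series, and each had 2 spots on the platform that carries 4 arrays. On the other platform AVO2 and TOR2 had 2 spots and the other 8 genes had 1. The set was proposed with the ratios of these arrays already known, so the ratios below are a description and carry no test.

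Each of the 5 arrays compared, in its 2 channels, RNA that came down with zz-tagged Yra1 and RNA that came down with zz-tagged Mex67. Mex67 is the main export receptor for yeast mRNA, Yra1 is an RNA-binding adaptor that hands mRNA to it, and zz is an IgG-binding tag derived from protein A. The labels name no strain, growth medium, dye or number of cultures, so the spread between arrays may be technical. The 5 arrays form 1 group with no untreated or untagged control. Replicates 2 to 5 shared a platform, replicate 1 was on another, and replicates 3 and 5 have a code in common in their titles.

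TOR is a large protein kinase that couples growth to nutrients and to the state of the plasma membrane. TOR complex 1 (TORC1), which rapamycin inhibits, holds Tor1 or Tor2 with Kog1, Tco89 and Lst8 and promotes ribosome synthesis and translation when nitrogen is plentiful. TOR complex 2 (TORC2) is built on Tor2 alone, with Avo1, Tsc11, Avo2, Bit61 and Lst8, and acts through the kinases Ypk1 and Ypk2 on sphingolipid synthesis and the actin cytoskeleton. Here AVO1, AVO2, TSC11, BIT61 and SLM1 are called TORC2-only members, TOR1, KOG1 and TCO89 TORC1-only members, and LST8 and TOR2 members of both. Slm1 is an adaptor and substrate of TORC2 and not a core subunit.

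Values are log2 ratios of the 2 channels relative to the median of the array's spots, averaged over the spots of a gene. The numerator of the ratio is not stated in the labels. "Lower" and "higher" therefore describe the deposited ratio and say nothing of which precipitate was richer in a transcript. Means and SDs are over replicates 2 to 5 (n = 4), and replicate 1 is given beside them. Precision is limited by the number of arrays, and the signal behind each ratio is unknown because only ratios were used here.

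The arrays differed widely from one another. The SD of the gene ratios was 0.78, 1.31, 0.77, 0.90 and 1.20 on replicates 1 to 5, so replicate 2 was the widest. Ratios were not scaled between arrays except in 1 alternative. Across genes Pearson's r between arrays ran from -0.06 to 0.13, while adjacent duplicate spots of a gene on 1 array correlated with r from 0.75 to 0.89. The duplicates lay side by side. A spot also correlated with the median of surrounding spots of other genes, with r from 0.58 to 0.76 on replicates 2 to 5. These are correlations across genes or spots, which are not independent replicates. In limma's test of each gene against 0 over replicates 2 to 5, 0 of 5535 genes passed at a Benjamini-Hochberg adjusted p of 0.05 (0%), and 300 had an unadjusted p under 0.05 (5.42%, of which 3.99% lower and 1.43% higher). Of the 10 members 0 passed after adjustment and 1, AVO1, had an unadjusted p under 0.05. Since the set was chosen with these ratios known, nothing is read from that count.

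**Figure D1:**
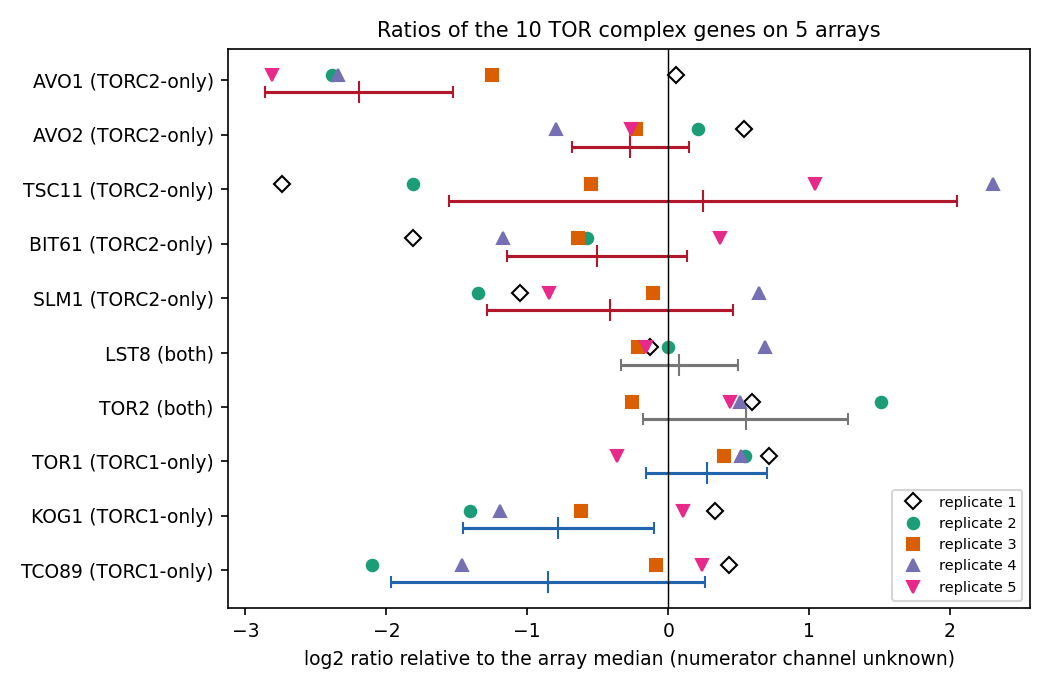
Log2 ratio, relative to the array median, of each of the 10 genes on each array (symbols, horizontal axis), with the mean and SD over replicates 2 to 5 as a bar under each row. AVO1 lies between -2.81 and -1.25 on these 4 arrays and at 0.05 on replicate 1, and TSC11 runs from -2.74 to 2.31 over the 5 arrays.

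AVO1 stood lowest of the 10 genes. It encodes an essential scaffold subunit of TORC2, the yeast relative of mammalian Sin1, which places the complex at the plasma membrane. Its ratios on replicates 2 to 5 were, in order, -2.38, -1.25, -2.34 and -2.81. It was thus low on each of these arrays, in the 7.44th, 4.97th, 1.99th and 2.48th percentile of genes in that order. On replicate 1 the ratio was 0.05, in the 56.1th percentile, so the other platform did not show the low value. The mean was -2.20 ± 0.67 (SD, n = 4), 4.58-fold below the array median and the 11th lowest of 5535 genes. AVO1 was the only member with 1 sign on replicates 2 to 5. Of all genes, 7.14% had ratios below 0 on these 4 arrays and 7.12% had ratios above 0.

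Both AVO1 spots carried the low ratio. The first spot was at -2.52, -1.004, -1.98 and -2.32 on replicates 2 to 5. The second was at -2.24, -1.49, -2.70 and -3.30. Neither shared its value with a neighbouring spot on any of these arrays, but position alone fixed that result. Shared values were confined to the margins of the assumed blocks of 400 spots, with 0% elsewhere on replicates 2 to 5. Both AVO1 spots, at row 17 and columns 15 and 16, lay in the inner part. The absence of shared values thus says nothing of whether the AVO1 ratio is its own. The surrounding spots of other genes, within 2 rows and 2 columns, had medians of 0.09, 0.35, -0.35 and 1.31 around the first spot and -0.05, 0.22, -0.59 and 0.83 around the second. AVO1 was below these medians at both spots on each of the 4 arrays. With the local median subtracted, AVO1 was at -2.40, -1.53, -1.87 and -3.88 on replicates 2 to 5, a mean of -2.42 ± 1.04 (SD, n = 4). On replicate 1 the single spot was at -0.05 after the same step. Replicate 2 had a deposited array median of 1.96, opposite in sign to the -2.81, -1.45 and -1.59 of replicates 3 to 5, so means were also computed with its ratios turned. The AVO1 mean was then -1.004, since 1 of the 4 values then counts against the other 3.

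TSC11 had the widest spread of the set. It encodes the TORC2 subunit also known as Avo3, the yeast counterpart of mammalian Rictor. Its ratios on replicates 1 to 5 were, in order, -2.74, -1.81, -0.55, 2.31 and 1.04. The gene was therefore among the lowest genes on replicate 1, in the 0.323th percentile, and among the highest on replicate 4, in the 99.3th. Its mean of 0.25 ± 1.80 (SD, n = 4) was smaller than its spread, and was -0.44 without replicate 4, -0.02 without replicate 5 and 0.93 without replicate 2. The SD was wider than that of 93.7% of genes, against a median SD of 0.77 over all genes.

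The TSC11 spots followed the area of the array in which they lay. The spots around the first TSC11 spot had medians of -1.98, -0.05, 1.63 and 0.44 on replicates 2 to 5. After the local median was subtracted, TSC11 was at 0.14, -0.46, 0.67 and 0.22 on these arrays, a mean of 0.15 ± 0.46 (SD, n = 4). On replicate 1 it was at -1.14 after this step. AVO1 and TSC11 thus differed in how their ratios stood to their surroundings.

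**Figure D2:**
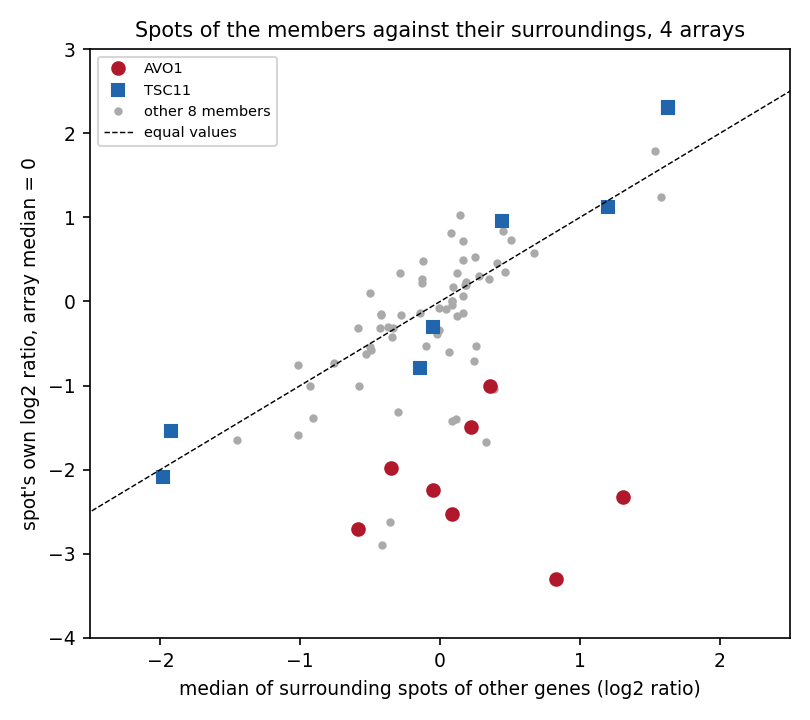
Log2 ratio of each member spot on replicates 2 to 5 (vertical axis) against the median of the surrounding spots of other genes (horizontal axis), with AVO1 as circles, TSC11 as squares and the other 8 members as dots. TSC11 lies near the dashed line of equal values, from a local median of -1.98 to 1.63, and the 8 AVO1 values lie below it.

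Over the 80 spot values of the 10 genes on 4 arrays, a spot's ratio and the median of its surroundings correlated with r = 0.50, and with r = 0.74 without AVO1. Over all spots of an array this r ran from 0.58 to 0.76 on replicates 2 to 5. These points share arrays and genes, so the coefficients are descriptions. The part of position in the ratios was not tested beyond the subtraction of the local median.

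The remaining TORC2-only members were nearer to 0. AVO2, a peripheral subunit gene, was at 0.54 on replicate 1 and at 0.21, -0.23, -0.80 and -0.26 on replicates 2 to 5. Replicate 4 was the lowest, and the mean was -0.27 ± 0.41 (SD, n = 4), -0.09 without replicate 4, -0.43 without replicate 2 and -0.05 with the local median subtracted. Of the 8 AVO2 spot values, 3 were identical to those of an adjacent spot of another gene and may not be its own.

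BIT61 encodes a subunit that binds Tsc11. Its ratios on replicates 1 to 5 were, in order, -1.81, -0.58, -0.64, -1.17 and 0.36. It was below 0 on 4 of 5 arrays and lowest on the other platform, though on replicate 2 only in the 33.6th percentile of genes. The mean was -0.51 ± 0.64 (SD, n = 4), -0.28 without replicate 4 and -0.80 without replicate 5. With the local median subtracted the mean was -0.11 ± 0.12, while replicate 1 stayed at -1.28. Its paralogue BIT2, which can take its place in the complex, was at -0.65 on replicate 1 and at -0.42 ± 0.83 over replicates 2 to 5, or 0.06 with the local median subtracted, with 4 of 8 spot values shared with a neighbour. Spots of paralogues can bind the same cDNA where their sequences are alike, so such pairs may not be separate measurements.

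SLM1, whose product binds the lipid phosphatidylinositol bisphosphate and brings Ypk1 to TORC2, was at -1.05 on replicate 1 and at -1.35, -0.11, 0.65 and -0.85 on replicates 2 to 5. It was below 0 on 4 of 5 arrays, though on replicate 3 only in the 42.6th percentile of genes. The mean of -0.41 ± 0.87 (SD, n = 4) was -0.10 without replicate 2, -0.77 without replicate 4 and 0.26 with replicate 2 given the opposite sign. The low value of replicate 2 was not that of its surroundings, since it was -1.71 once the local median was subtracted. Of its 8 spot values, 2 were shared with a neighbour. On replicate 5 the first SLM1 spot was at -1.65 and the second, a shared value, at -0.04. The spots around the first had a median of -1.45 on that array, and it was at -0.20 once this was subtracted. SLM2, its paralogue, was named outside the naming rule for that reason and was at 0.03 ± 0.18, the narrower spread of the pair.

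The genes shared by the complexes had means at or above 0. LST8, a WD-repeat subunit that binds the kinase domain, was at -0.13 on replicate 1 and at 0.00, -0.21, 0.69 and -0.16 on replicates 2 to 5, so that replicate 4 stood apart. Its mean was 0.08 ± 0.42 (SD, n = 4), and -0.12 without replicate 4. Of the 8 LST8 spot values 3 were shared with a neighbour of another gene, those of the second spot on replicates 2, 4 and 5. On replicates 2 and 5 the first LST8 spot held the same value as the second. The LST8 ratios on these arrays may thus not be its own. TOR2, the kinase gene that is essential because TORC2 needs it, was at 0.59 on replicate 1 and at 1.51, -0.25, 0.51 and 0.44 on replicates 2 to 5. It was above 0 on 4 of 5 arrays, with a mean of 0.55 ± 0.73 that was 0.23 without replicate 2 and -0.20 with that array turned. The local medians of its 2 spots averaged 1.56, 0.06, 0.21 and 0.47 on replicates 2 to 5. With the local median subtracted TOR2 was at -0.02 ± 0.25 over replicates 2 to 5 and at 0.26 on replicate 1. On replicate 4 it stayed at 0.30 after this step.

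TOR1, the kinase gene that serves TORC1 alone, was at 0.71 on replicate 1 and at 0.54, 0.39, 0.52 and -0.37 on replicates 2 to 5. Replicate 5 was the single low array, and the mean was 0.27 ± 0.43 (SD, n = 4), 0.48 without replicate 5 and 0.11 ± 0.12 with the local median subtracted. TOR1 and TOR2 are paralogues of closely related sequence, so their spots may in part have bound the same cDNA. On each array the pair lay within 1.0 log2 units of each other, and their order changed: TOR2 was above TOR1 on replicates 2 and 5 and below it on replicates 1, 3 and 4.

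KOG1, which encodes the TORC1 scaffold related to mammalian Raptor, was at 0.33 on replicate 1 and at -1.41, -0.62, -1.19 and 0.11 on replicates 2 to 5. It was low on replicates 2 to 4 and near 0 on the other arrays, with a mean of -0.78 ± 0.68 (SD, n = 4). With the local median subtracted KOG1 was at -1.51, -0.87, -0.28 and -0.04 on replicates 2 to 5, a mean of -0.67 ± 0.66. On replicate 1 it was at 1.13 after this step. The mean was -0.08 with replicate 2 given the opposite sign.

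TCO89, a TORC1 subunit gene needed for the response to cell wall stress and rapamycin, was at 0.43 on replicate 1 and at -2.10, -0.09, -1.46 and 0.24 on replicates 2 to 5. Only replicates 2 and 4 were low, and its mean was -0.85 ± 1.11 (SD, n = 4), -0.44 without replicate 2 and 0.20 with that array's sign turned. The low values rested largely on 1 of its spots. On replicate 4 the first TCO89 spot was at -0.30 and the second at -2.62, and on replicate 2 they were at -1.31 and -2.89. On replicate 5 both spots held a value shared with a neighbour, and without the shared values the mean was -1.22 over the other 3 arrays.

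Duplicate spots of the other members were mostly closer. Of the 40 spot pairs of the 10 genes on 4 arrays, 37 lay on 1 side of 0 and the median gap was 0.36 log2 units. The LST8 pairs on replicates 2 and 5 had a gap of 0, with a value also held by a spot of another gene. A gap over 1 log2 unit was seen in 3 pairs, those of TCO89 on replicates 2 and 4 (1.58 and 2.32) and that of SLM1 on replicate 5 (1.61). Of the 80 spot values 10 (12.5%) were shared with an adjacent spot of another gene, in AVO2, LST8, SLM1 and TCO89. The array-wide shares were 24.0, 6.15, 12.1 and 31.5% on replicates 2 to 5.

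Ordered by mean from lowest to highest, the genes were AVO1, TCO89, KOG1, BIT61, SLM1, AVO2, LST8, TSC11, TOR1 and TOR2. AVO1 lay 1.34 ± 1.20 log2 units below TCO89 (mean and SD of the differences, n = 4) and was the lower on 4 of 4 arrays. The other 8 steps in this order were smaller than the SD of the difference between the neighbours, which ran from 0.39 to 1.97. Neighbours below AVO1 in this order were thus not separated beyond their spread.

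**Figure D3:**
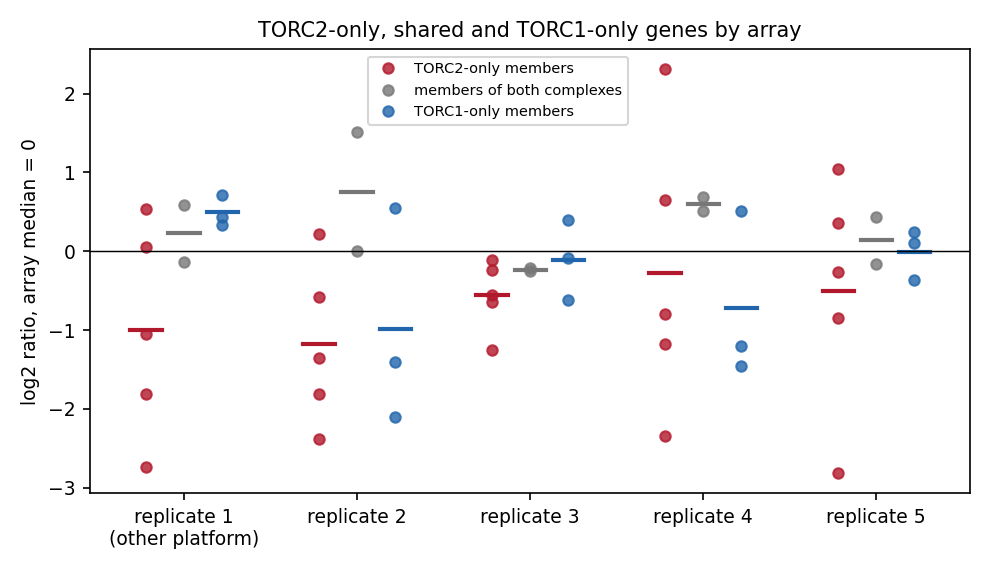
Log2 ratio of the members on each array (vertical axis), grouped by complex, with the group mean as a line. The TORC2-only mean is lower than the TORC1-only mean on replicates 1, 2, 3 and 5 and higher on replicate 4, and the groups overlap on each of the 5 arrays.

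The genes of the complexes were then compared within each array. The TORC2-only mean was -1.001, -1.18, -0.56, -0.27 and -0.50 on replicates 1 to 5. The TORC1-only mean was 0.49, -0.99, -0.10, -0.71 and -0.01 on the same arrays. TORC2-only minus TORC1-only was -1.49 on replicate 1, and -0.19, -0.45, 0.44 and -0.50 on replicates 2 to 5. The TORC2-only genes had the lower mean on 4 of 5 arrays, but the groups overlapped on all 5.

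Over replicates 2 to 5 the TORC2-only mean was -0.63 ± 0.39 (SD, n = 4) and the TORC1-only mean -0.45 ± 0.47. With replicate 2 turned they were at -0.037 and 0.041. Their difference of -0.17 ± 0.43 was smaller than the spread between arrays. The difference rested on AVO1: with that gene left out, a choice made after its values were seen, it was 0.22 ± 0.52 (SD, n = 4) on replicates 2 to 5. It was 0.09 with LST8 and TOR2 counted with TORC2, -0.08 without replicate 3 and -0.07 without replicate 5. It was larger than its SD without replicate 4, at -0.38 ± 0.16 (SD, n = 3), and with the first spot of each gene alone, at -0.28 ± 0.23 (SD, n = 4). With replicate 1 added it was -0.44 ± 0.70 (SD, n = 5), and with replicates 3 and 5 averaged it was -0.08. With the local median subtracted the difference was -0.13 ± 0.53, below 0 on 2 of 4 arrays.

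On replicate 1 the gap was wider and came from other genes. Its difference of -1.49 came from TSC11, BIT61 and SLM1 at -2.74, -1.81 and -1.05, while AVO1 was at 0.05 and AVO2 at 0.54. Without AVO1 the gap there was -1.76, and with the local median subtracted it was -1.05. The TORC1-only genes on that array lay between 0.33 and 0.71, above 4 of the 5 TORC2-only genes. On replicate 2 the TORC2-only mean without AVO1 was also low, at -0.88, with TSC11 at -1.81 and SLM1 at -1.35. Replicate 1 has no second array on its platform, so its gap has no replicate check.

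**Figure D4:**
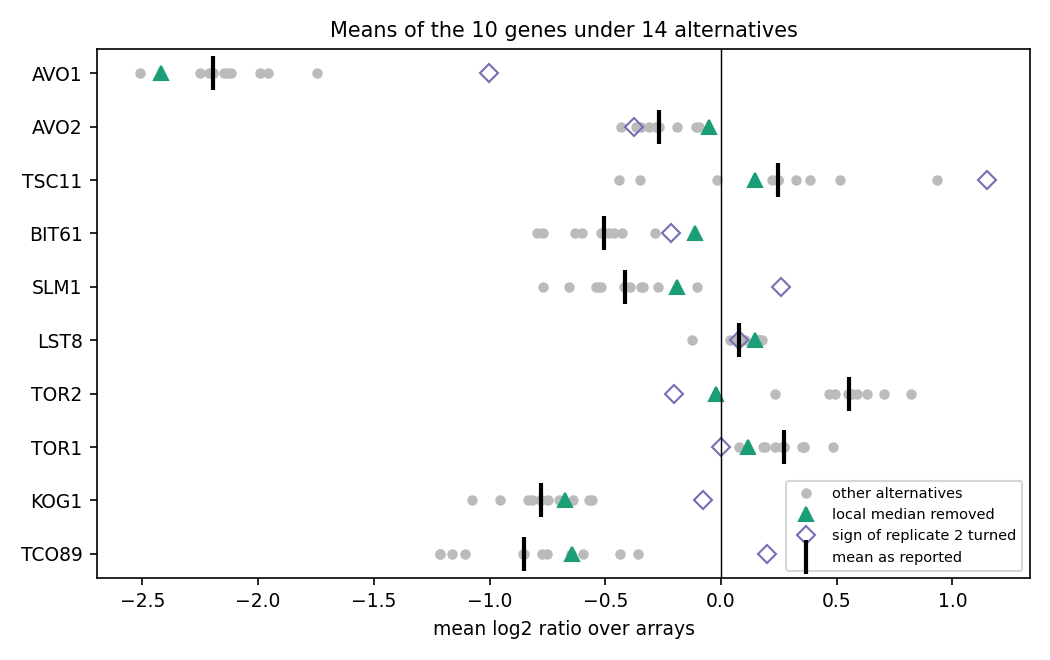
Mean log2 ratio over arrays of each of the 10 genes (horizontal axis) as reported (black bar) and under 14 alternatives (symbols). AVO1 stays below -1.0 under each of them, with the sign of replicate 2 turned as the nearest to 0, and TSC11, SLM1, LST8, TOR2, TOR1 and TCO89 cross 0 in at least 1.

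The 5 genes closest to the TORC2-only mean on replicates 2 to 5, by root mean square difference, were TFC1 (0.105 log2 units), RQC2 (0.151), DUF1 (0.163), MTC6 (0.176) and YJR154W (0.192). TFC1 encodes a subunit of transcription factor IIIC and RQC2 a factor of ribosome-associated quality control. They were picked as the nearest of 5525 genes, whose median distance was 1.06, so their closeness is a result of the choice. Distances of the TORC2-only members from their own mean ran from 0.545 for SLM1 to 1.70 for AVO1.

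Of 86 further genes of the TOR pathway 83 were measured. The means of 40 were below 0 and those of 43 above it, against 51.3% of all genes below 0. None passed limma's test after adjustment over all genes, and 2 had an unadjusted p under 0.05, both lower, against 3.99% of all genes lower at that threshold. The 17 measured genes of amino acid signalling to TORC1, which include the EGO and SEA complexes at the vacuole, had a median of -0.01. The 5 measured genes of further subunits and assembly factors had a median of 0.15, the 31 TORC1 effectors 0.04 and the 30 TORC2 effectors 0.01, beside -0.02 for all genes and -0.34 for the 10 members. With the local median subtracted the median of the 10 members was -0.08, beside 0.01 for all genes.

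**Figure D5:**
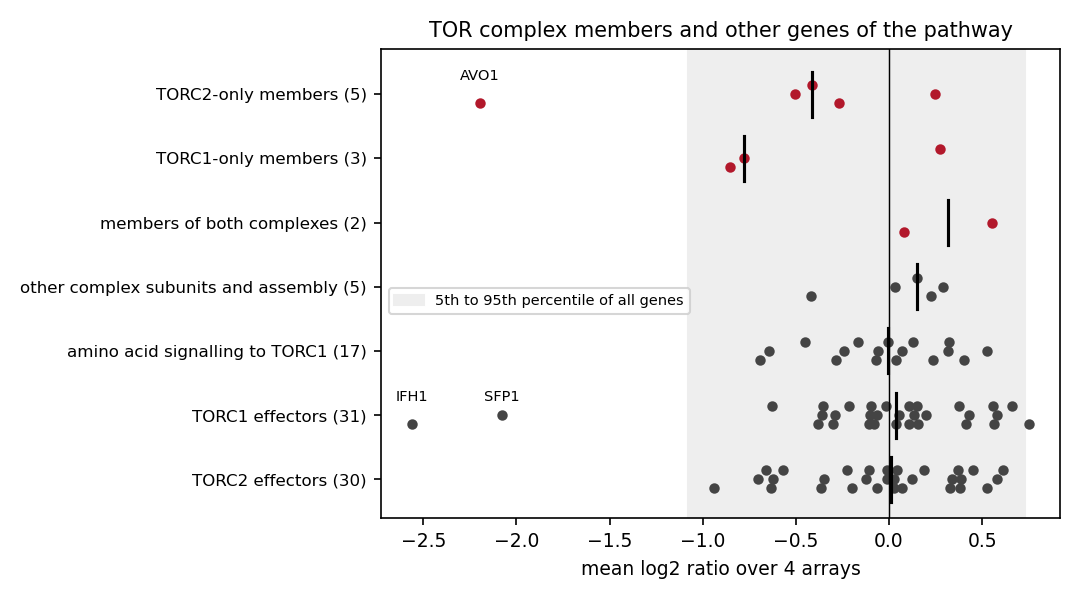
Mean log2 ratio over replicates 2 to 5 (horizontal axis) of the members and of the other pathway genes by list, with the number measured in brackets, the list median as a black line and the 5th to 95th percentile of all genes, -1.08 to 0.73, shaded. AVO1, IFH1 and SFP1 are the genes below -2.0.

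Those 2 genes were IFH1 and SFP1, TORC1 effectors that control the transcription of ribosomal protein genes. IFH1, a coactivator at these promoters, was at -4.56, -1.31, -3.30 and -1.07 on replicates 2 to 5, a mean of -2.56 ± 1.67 (SD, n = 4, limma adjusted p = 0.836). SFP1, a transcription factor that TORC1 keeps in the nucleus, was at -4.67, -0.999, -1.66 and -0.99, a mean of -2.08 ± 1.75 (limma adjusted p = 0.836). Both were low on 4 of 4 arrays and lowest on replicate 2, the array with the widest ratios over all genes. With that array's sign turned they were at -0.28 and 0.26. With the local median subtracted they were at -2.36 and -2.09, and a shared value occurred in 0 of 8 IFH1 and 1 of 8 SFP1 spot values. On replicate 1 they were above 0, at 0.41 and 0.97, as AVO1 was at 0.05.

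The other pathway genes of smallest p in their lists had smaller means. RTG3, a transcription factor gene of the retrograde response that TORC1 holds back, was at 0.66 ± 0.13 (SD, n = 4) and at 0.72 on replicate 1, but held a shared value in 5 of 8 spot values and was at 0.22 with the local median subtracted. WHI2, which restrains TORC1 when amino acids are scarce, was at -0.65 ± 0.58, and at 0.00 with the local median subtracted. GTR1, a Rag-family GTPase gene of the EGO complex, was at -0.70 ± 1.34, with -2.60 on replicate 2, and at 0.01 with the local median subtracted or 0.60 with replicate 2 turned. SEH1, which encodes a SEA complex and nuclear pore subunit, was at 0.52 ± 0.89, and at 0.22 and -0.34 under the same changes. On replicate 1 WHI2, GTR1 and SEH1 were at 0.14, 0.16 and 0.37.

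Among the TORC2 effectors LSP1, an eisosome gene of the plasma membrane, was at -0.94 ± 1.30 (SD, n = 4), and at -0.05 with the local median subtracted. CMP2, a calcineurin subunit gene, was at 0.61 ± 0.59 and the kinase gene KIN82 at 0.58 ± 0.49. TEL2 and TTI2, whose products help to assemble TOR and related kinases, were at 0.22 ± 0.54 and 0.29 ± 0.27. On replicate 1 LSP1, CMP2, KIN82, TEL2 and TTI2 were at 0.38, -0.02, -1.15, -0.85 and -0.01, each opposite in sign to its mean. LSP1 and KIN82 each held a shared value in 4 of 8 spot values. The adjusted p of these 5 genes in limma ran from 0.836 to 0.937.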

How the data were processed

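The authors deposited 1 value per spot and array, in tables of 12800 spots (replicates 2 to 5) and 7680 spots (replicate 1). The deposited values were read as log10 ratios of the channels: raised as powers of 10, 3.4 to 21.9% of 2000 spots per array gave quotients of whole numbers no larger than 3000 (within 1.2e-09 log units), against at most 0.75% with base 2 or e. Scanner, background correction and normalization are not stated in the labels. The deposited ratios were not centred, with array medians from -2.81 to 1.96 in log2 units.

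Values were converted to log2, centred on each array's median and averaged per gene over its spots. One row without a numeric ID was left out and 2 IDs on 2 rows were merged. Names came from the platform annotation, updated with the RefSeq gene table of assembly R64. On the 4-array platform 11138 spots had 1 gene, 1662 none and 0 several, and 5534 genes matched by ID. On the other platform the numbers were 6695, 985 and 0. With no build named, coordinates are left out. No platform layout was used: rows of 20 spots were inferred from the correlation of values 1 and 20 spots apart, and blocks of 400 (240 for replicate 1) were assumed. Local medians, shared values and positions rest on this layout.

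limma 3.58.1 (R 4.3.3; lmFit, eBayes, two-sided) tested each gene with at least 3 values against 0, with Benjamini-Hochberg adjustment over 5535 genes. The fit was tested on simulated data, with known changes added to ratios shuffled within arrays. Other values used Python 3.11.15. P-values set a gene's mean against its spread between these arrays, which eBayes moderates toward a value pooled over all genes.

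The members, lists and alternatives were chosen with earlier results of these data known. Named are the 10 members, up to 3 genes of smallest p per pathway list, and the 5 genes nearest to the TORC2-only mean. A shared value is a deposited value identical to that of an adjacent spot of another gene. On replicates 2 to 5 such values were found only toward the block margins, so a lack of them in inner spots is uninformative. FPR1, EGO2 and IGO2 were not analysed here.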

Additional observations from a re-analysis of the deposited data

Results flagged for a closer look

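In 44 sets of values over 4 or 5 arrays, 1 array stood far from the others in 4. Chance gives about 1 in 20 for independent sets. These sets share arrays and the members were chosen with the ratios known, so nothing is read from the count. LST8 was at 0.69 on replicate 4, with the other 4 arrays between -0.21 and 0.00. TOR1 was at -0.37 on replicate 5, with replicates 2 to 4 between 0.39 and 0.54. TTI2 was at 0.69 on replicate 3, with the other 3 arrays of that platform between 0.13 and 0.19. RQC2, 1 of the genes nearest to the TORC2-only mean, was at -1.31 on replicate 2, with the other 3 between -0.50 and -0.42. That mean was itself lowest on replicate 2, at -1.18, so the far value of RQC2 follows in part from how it was picked.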

How the results depend on the processing

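No paired analysis was possible because the arrays form 1 group. Under all 15 alternatives 0 genes and 0 pathway genes passed the adjusted threshold, with 230 to 340 genes at an unadjusted p under 0.05. That count split into 79 higher and 221 lower as reported, 125 and 197 with arrays centred on their mean, 105 and 155 with the local median subtracted, 130 and 210 without replicate 2, 183 and 127 with the sign of replicate 2 turned, and 164 and 125 without moderation. With the sign of replicate 2 turned, the TORC2-only mean was -0.037 and the TORC1-only mean 0.041. With the arrays scaled to a common spread the TORC2-only mean was -0.60, the TORC1-only mean -0.41 and their difference -0.19 ± 0.48. The TORC2-only mean was -0.24 without AVO1, and ran from -0.75 to -0.44 with 1 array left out at a time. The TORC1-only mean then ran from -0.60 to -0.27, and the difference of the groups from -0.38 to -0.07. The difference was above 0 in 2 of 18 alternatives, of which 3 (both centrings and the median of spots) cannot change it. The means of AVO1, AVO2, BIT61 and KOG1 kept their sign in all 14 alternatives. Not all of these could change it: with 2 spots per gene the median of spots equals their mean. Leaving out shared values cannot change AVO1, BIT61 or KOG1, which held none. A gene with 1 sign throughout always gets a mean nearer to 0 when 1 array is turned.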
